A study of Mus musculus with 9 samples.

Results

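The difference between aged and young brain cells was measured in mice that had all received the same control virus. Single-nucleus RNA-seq libraries of 3 aged mice given AAV-EGFP were compared with libraries of 3 young mice given AAV-EGFP, 6 of the 9 libraries in the series. All were male wild-type C57BL/6 mice, 5 months old in the young group and 19 months old in the aged group. The study drew aged mice from the National Institute on Aging and young mice from Jackson Laboratories. Age and source of the mice therefore cannot be told apart. AAV-EGFP is an adeno-associated virus with the AAV-PHP.V1 capsid that carries EGFP behind the sCLDN5 promoter, which is active in endothelial cells, so both groups carried the vector and neither was untreated. It was injected retro-orbitally 8 weeks before the tissue was taken. Each library held the nuclei of 1 mouse, sorted from pooled cortex and hippocampus. The remaining 3 libraries, from aged mice given the enzyme B3GNT3 by the same vector, entered the statistical fit only as further replicates for the estimate of spread.

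Ageing of the brain is known to act on some processes in nearly every cell type and on others in a single type. Protein quality control rests on cytosolic heat shock proteins, which refold proteins, and on the chaperones and disulfide isomerases of the endoplasmic reticulum, whose genes are switched on together when unfolded protein builds up there. Neurons adjust their synapses through activity-dependent genes and postsynaptic scaffolds, oligodendrocytes maintain myelin, astrocytes take up transmitter and supply lipid, and microglia produce complement and clear debris. In nuclei, RNA of short, highly transcribed genes and RNA still being spliced are both captured, and the count of a gene in a nucleus is not the amount of its protein.

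The 6 AAV-EGFP libraries held 56239935 to 79964605 unique molecular identifiers (UMIs, single captured RNA molecules), and 5777 to 9281 nuclei each after nuclei outside 200 to 5000 genes, nuclei over 10% mitochondrial UMIs and likely doublets were removed. Clusters were named from marker genes and their UMIs summed per library and class, and a class is called here by the cell type whose markers it held. The summed classes held 6671 nuclei from young and 7396 from aged mice for excitatory neurons, 2461 and 3158 for inhibitory neurons, 3514 and 2087 for astrocytes, 5577 and 7107 for oligodendrocytes, 741 and 884 for oligodendrocyte precursors, 547 and 770 for microglia, and 297 and 212 for brain endothelial cells. The inhibitory class included a cluster of 3703 nuclei over all 9 libraries that carried striatal marker genes, although the labels name only cortex and hippocampus. Each named cluster passed at least 3 of the marker genes of its type. Any 2 of the 9 libraries shared 0.108 to 0.414% of the barcodes of the smaller one.

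A property of the libraries separated the aged from the young AAV-EGFP group in each of the 7 classes tested. The estimated share of a class's UMIs that was free RNA, released by broken cells and captured with any nucleus, was estimated from the counts of other classes' marker genes and was lower in each aged AAV-EGFP library than in each young library in all 7 classes. It was 15.6 to 18.7% against 8.31 to 12.1% in excitatory neurons, 12.8 to 16.1% against 9.16 to 12.5% in inhibitory neurons and 21.0 to 27.1% against 10.9 to 15.7% in astrocytes. In microglia it was 34.5 to 42.4% against 17.7 to 30.2%. The 3 aged AAV-B3GNT3 libraries did not share the low values, with 12.3 to 17.8% in excitatory neurons, 18.6 to 24.8% in astrocytes and 37.9 to 41.7% in microglia, above every aged AAV-EGFP library in each of these classes, and in inhibitory neurons, at 11.3 to 13.9%, they overlapped both groups. Choroid plexus epithelial cells, pericytes and fibroblasts were named as well, but their sums were not tested. In pericytes the aged and young AAV-EGFP libraries overlapped, at 22.8 to 42.8% and 29.7 to 37.4%, as they did in fibroblasts, at 7.60 to 35.4% and 17.1 to 25.8%. Results are given as deposited, and values named as after subtraction were computed after each library's free RNA profile had been subtracted from the class sums, with the mean profile of the library in the place of its free RNA. Genes whose class counts did not exceed the estimate in enough libraries dropped out of the test after subtraction. In counts of list members after subtraction such genes stand as not called. What part free RNA had in the results was not tested beyond that subtraction.

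**Figure D1:**
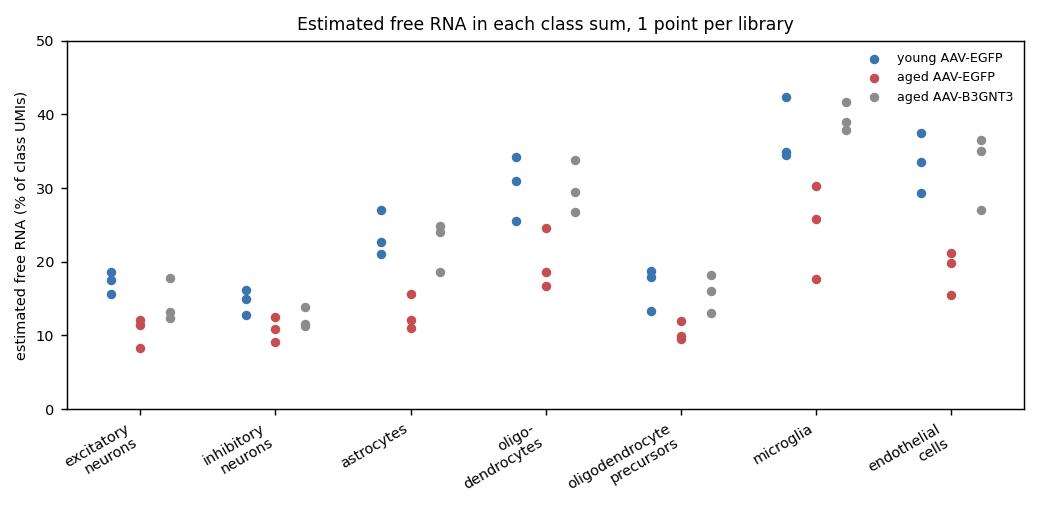
Estimated free RNA as a percentage of the UMIs of each class sum (y axis), 1 point per library, for the 7 cell classes (x axis) and the 3 groups. The aged AAV-EGFP points lie below the young AAV-EGFP points in each class, for example 8.31 to 12.1% against 15.6 to 18.7% in excitatory neurons, while the aged AAV-B3GNT3 points lie at 12.3 to 17.8% there and at 37.9 to 41.7% in microglia, against 17.7 to 30.2% for aged AAV-EGFP.

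A gene was called when its adjusted p was under 0.05 in edgeR's quasi-likelihood test, with Benjamini-Hochberg adjustment over all genes tested in the class. Levels of single genes are CPM, the counts of a gene scaled to a common total per class sum with TMM size factors over the genes tested. Sums of marker genes, and levels in the whole libraries, are instead scaled to all UMIs. Differences are log2 fold changes of aged over young mice with their standard errors. Each group had 3 libraries, named young 1 to 3 and aged 1 to 3. Between young and aged mice 2891 of 13191 genes tested were called in oligodendrocytes, 2405 of 16863 in excitatory neurons, 1363 of 12613 in astrocytes, 771 of 7851 in microglia, 564 of 14323 in inhibitory neurons, 442 of 9885 in oligodendrocyte precursors and 116 of 4938 in brain endothelial cells. These numbers rested on single libraries to an unequal extent. With 1 library left out at a time they ran from 239 (without young 3) to 3684 (without aged 1) in excitatory neurons, from 2 (without aged 2) to 1373 (without aged 1) in inhibitory neurons, and from 1510 (without aged 3) to 3859 (without aged 1) in oligodendrocytes. The same range was 534 (without aged 3) to 2252 in astrocytes, 81 (without aged 2) to 1164 in precursors, 391 (without aged 3) to 991 in microglia and 0 (without young 1) to 481 in endothelial cells, the highest value being without aged 1 in each. Of the 233 members named by rule in excitatory neurons 53 kept their call without young 3, 95 without aged 2 and 194 after subtraction of free RNA, and of the 89 in inhibitory neurons 0 did without aged 2 or aged 3 and 33 after subtraction. Of 249 in oligodendrocytes 184 did without aged 3 and 94 after subtraction. No member named by rule in any of the 7 classes changed sign when a library was left out. The rule required no overlap between the groups, so these signs could hardly turn.

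A small set of genes was called higher in aged mice in nearly every class. Of the 6 genes called higher in all 7 classes 5 carried a gene name, H3f3b, Ubb, Gapdh, Eif1 and Ppia. Fau, Zc3h6, Ftl1, Pcsk1n and Chchd2 were called higher in 6, among them Ftl1, the light chain of ferritin, and Pcsk1n, an inhibitor of prohormone processing. H3f3b (chr11:116021912-116027962, minus strand) encodes the replacement histone H3.3, which is loaded onto chromatin outside of DNA replication. In excitatory neurons it measured 17.5, 20.2 and 21.5 CPM in the young and 27.3, 59.3 and 42.1 CPM in the aged libraries (log2 fold change 1.13 ± 0.22, adjusted p = 0.011), and in oligodendrocytes 28.1, 41.4 and 32.4 CPM in the young and 73.3, 218 and 131 CPM in the aged libraries (2.05 ± 0.31, adjusted p = 0.0016). All aged libraries lay above all young ones in both classes. Ubb (chr11:62551171-62553213, plus strand), a gene for polyubiquitin, the tag that marks proteins for the proteasome, measured 16.3, 25.2 and 19.8 CPM in the young and 33.3, 56.1 and 48.2 CPM in the aged libraries in excitatory neurons (1.17 ± 0.22, adjusted p = 0.0097) and 32.7, 60.0 and 39.6 CPM in the young and 89.5, 145 and 113 CPM in the aged libraries in astrocytes (1.39 ± 0.22, adjusted p = 0.0017), again without overlap. Gapdh, the glycolytic enzyme often used as a reference gene, changed by 1.04, adjusted p = 0.0058 in excitatory neurons, 1.15, adjusted p = 0.0010 in astrocytes and 1.43, adjusted p = 0.0017 in oligodendrocytes. Gapdh kept its call with any single library left out and H3f3b and Ubb lost their calls without young 3 in excitatory neurons. In inhibitory neurons, H3f3b, Ubb and Gapdh lost their calls without young 3 or aged 2 or 3. After subtraction of free RNA H3f3b and Ubb were each still called in 4 of the 7 classes. Several of these genes have processed pseudogenes or close copies, such as H3f3a for H3f3b, so their counts are uncertain to the extent that reads could be placed on either copy.

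Falls that reached many classes were fewer than rises, but falls shared by 2 classes were not. In at least 2 classes 853 genes were called higher and 1129 lower, in at least 5 classes 49 and 33, and in at least 6 classes 20 and 4. The 4 lower ones were Mir124a-1hg, the host transcript of a neuronal microRNA, Dusp11, an RNA phosphatase, Srcin1, a Src kinase regulator, and Fxr1, an RNA-binding relative of the fragile X protein. After subtraction of free RNA they were called lower in 2, 4, 2 and 3 classes, and Srcin1 in astrocytes stood at 0.93, adjusted p = 0.69 in place of -1.06. A further 97 genes were called higher in one class and lower in another. The classes differ in the number of genes that could be tested, from 4938 to 16863.

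**Figure D2:**
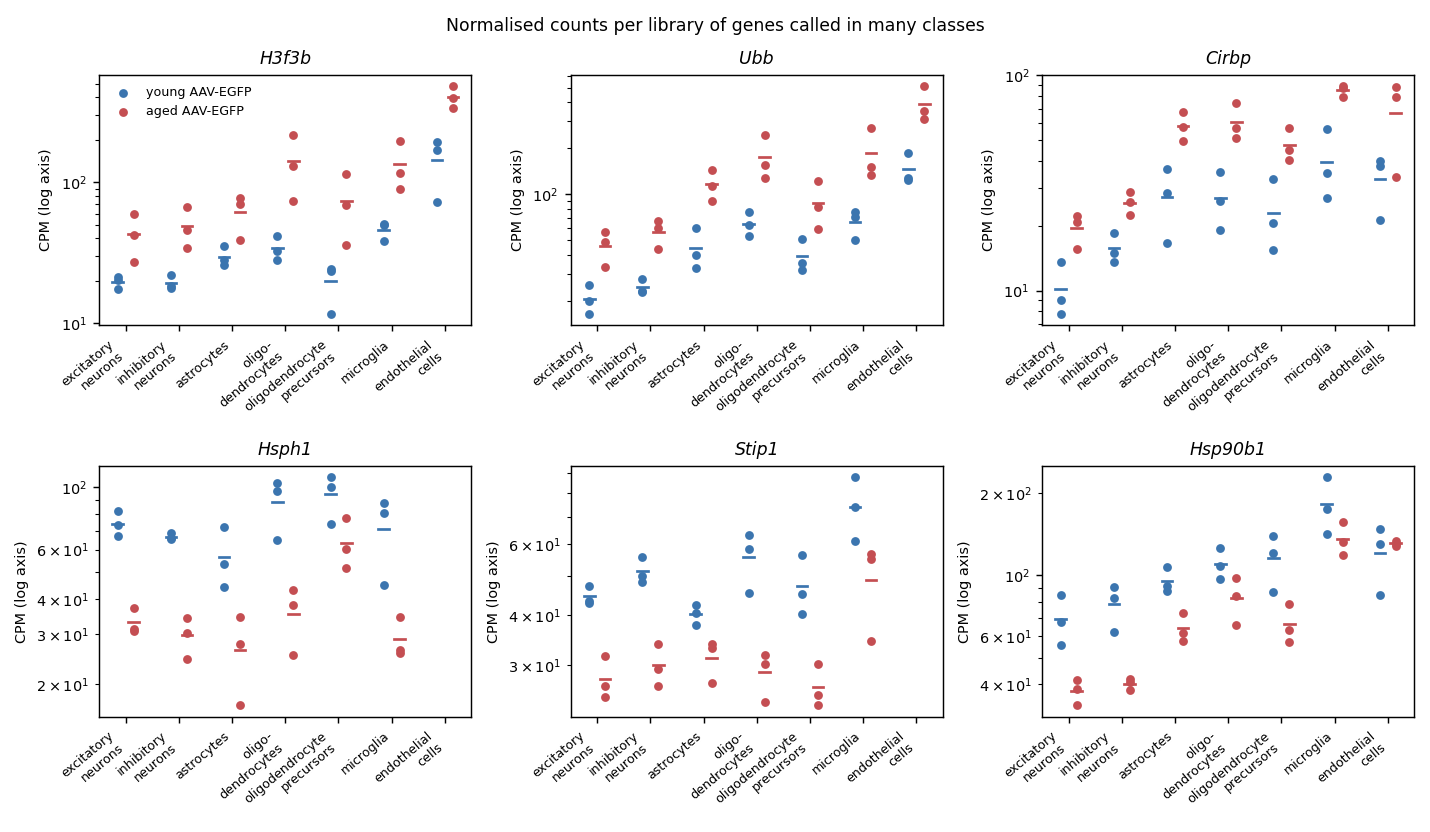
CPM on a log axis (y axis) of 6 genes, H3f3b, Ubb, Cirbp, Hsph1, Stip1 and Hsp90b1, in each of the 6 AAV-EGFP libraries (1 point per library, coloured by group) across the 7 cell classes (x axis). In excitatory neurons and oligodendrocytes the aged points of H3f3b and Ubb lie above, and those of Hsph1 and Stip1 below, all young points.

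The proteins of the cytosolic ribosome, which translates messenger RNA, and the nuclear-encoded subunits of oxidative phosphorylation, which makes ATP, were called higher more often than lower in several classes. Of 80 ribosomal protein genes tested in excitatory neurons 28 were called higher and 1 lower, against 7.56% of all genes called higher and 6.70% called lower. In oligodendrocytes 66 of 80 were called higher and 0 lower (background 11.2% higher and 10.7% lower), with a median log2 fold change of 0.92 over the family. In astrocytes 15 of 79 were called higher (background 4.31%), in inhibitory neurons 12 of 80 (2.23%), in microglia 18 of 64 (3.48%), in endothelial cells 21 of 65 (1.86%) and in precursors 2 of 71 (2.23%). The count in precursors was thus near its background. In excitatory neurons the count was 12, 12 and 2 without young 1, 2 and 3 in turn, and 48, 7 and 8 without aged 1, 2 and 3, and in oligodendrocytes 44, 58 and 54 without young 1, 2 and 3 in turn, and 75, 43 and 53 without aged 1, 2 and 3. After subtraction of free RNA, 24 were called higher in excitatory neurons and 36 in oligodendrocytes. In inhibitory neurons 4 were called higher, in precursors 1, in astrocytes 0, in microglia 0 and in endothelial cells 0. A lost call does not show that the rise was gone. The median span of the family was 3.24 kb. Over all genes under 5 kb the median log2 fold change was 0.42 as deposited and 0.35 after subtraction in astrocytes. It was 0.71 and 0.61 in microglia and 1.16 and 0.93 in endothelial cells. In inhibitory neurons it was 0.35 and 0.36, and in precursors 0.48 and 0.48. Rps4x, a component of the small subunit, measured 3.99, 6.01 and 5.16 CPM in the young and 9.50, 13.6 and 11.5 CPM in the aged libraries in excitatory neurons (1.19 ± 0.20, adjusted p = 0.0071). Every aged library stood above every young one. Rps4x kept its call with any single library left out. Reads of ribosomal protein genes can match their many processed pseudogenes.

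Oxidative phosphorylation genes were called higher in the same large classes. In oligodendrocytes 47 of 78 genes were called higher and 1 lower, with 25 of 78 higher and 0 lower in excitatory neurons, and 19 of 78 higher in astrocytes, beside 11.2%, 7.56% and 4.31% of all genes. After free RNA subtraction 26, 25 and 0 were called higher. In astrocytes calls over all genes went from 1363 to 80 with subtraction. The 0 there does not show that the rise was gone. The median span of these genes was 7.46 kb. Over all astrocyte genes of 5 to 20 kb the median log2 fold change was 0.12 as deposited and 0.11 after subtraction. The count in excitatory neurons was 13, 12 and 0 without young 1, 2 and 3 in turn, and 43, 1 and 7 without aged 1, 2 and 3. Ndufb9, a subunit of complex I, measured 6.71, 11.9 and 8.83 CPM in the young and 21.1, 32.3 and 24.2 CPM in the aged libraries in oligodendrocytes (1.51 ± 0.26, adjusted p = 0.0024) and 3.83, 4.37 and 3.40 CPM in the young and 5.95, 8.54 and 7.32 CPM in the aged libraries in excitatory neurons (0.91 ± 0.19, adjusted p = 0.012). Cox5a, a subunit of cytochrome c oxidase, rose in oligodendrocytes by 1.39 (adjusted p = 0.0035). Ndufb9 and Cox5a kept their calls with any single library left out in oligodendrocytes, whereas in excitatory neurons Ndufb9 lost its call without young 3 or aged 2. Of the 4 ubiquitin precursor genes all were called higher in excitatory neurons and in oligodendrocytes, and 3 in each after subtraction. Of 27 thymosin, actin and tubulin genes, which build the cytoskeleton, 18 were called higher in oligodendrocytes and 12 of 29 in excitatory neurons, with 0 and 0 lower, and after subtraction 7 and 8 were called higher. The shares over all genes called higher in these 2 classes are those given for oxidative phosphorylation.

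The genes of these families are short, and the fold change moved with gene length across all genes tested. Among genes spanning under 5 kb the median log2 fold change was 0.34 in excitatory neurons, 0.59 in oligodendrocytes, 0.42 in astrocytes and 0.71 in microglia, and among genes over 100 kb it was -0.08, -0.28, -0.22 and -0.29. Of the genes under 5 kb 15.6% were called higher in excitatory neurons and 30.9% in oligodendrocytes. After subtraction of free RNA these shares were 12.5% and 11.9%, and the medians over 100 kb were -0.06, -0.13, -0.10 and -0.10 in excitatory neurons, oligodendrocytes, astrocytes and microglia, while those under 5 kb were 0.35, 0.52, 0.35 and 0.61. The median span was 3.24 kb for the ribosomal proteins and 7.46 kb for oxidative phosphorylation, against 14.4 kb for the heat shock proteins, 12.1 kb for the endoplasmic reticulum stress response and 103 kb for the postsynaptic scaffolds. Whether reads from introns were counted is not given in the sources used here, and it bears on how far a count follows gene length. The part of gene length in the rise of the short families, or in the falls of lists of longer genes, was not tested. Nor was it tested for single short genes named below, such as C1qa, Cst3, Apoe, Fth1 and Olig2.

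**Figure D3:**
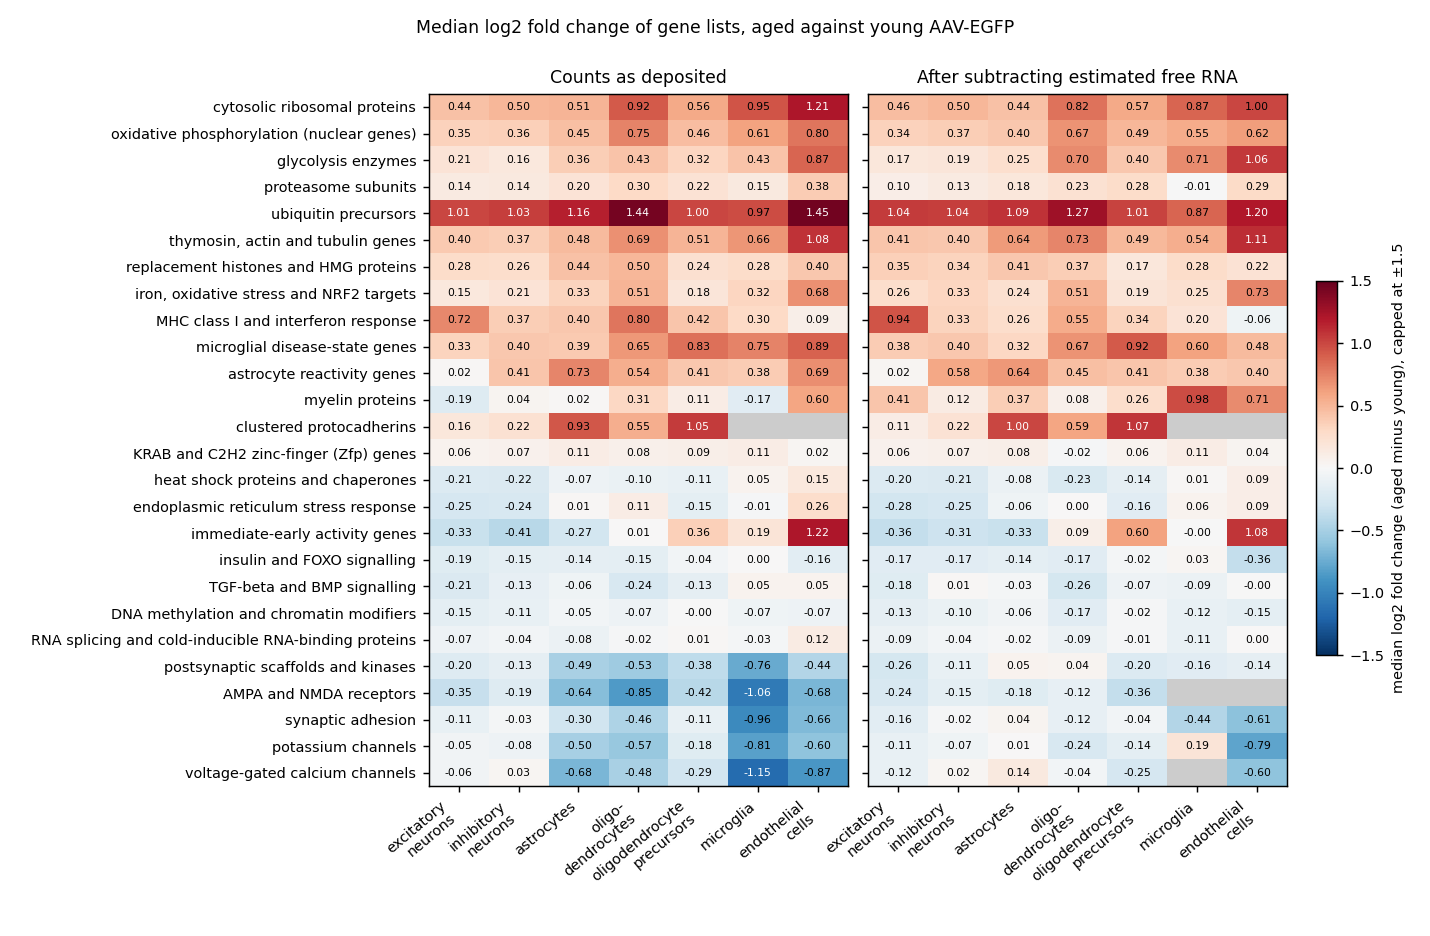
Median log2 fold change, aged over young, of 26 gene lists (rows) in the 7 cell classes (columns), as deposited on the left and after subtraction of free RNA on the right, with grey where fewer than 3 members were tested. The ribosomal protein row runs from 0.44 in excitatory neurons to 1.21 in endothelial cells as deposited, and the AMPA and NMDA receptor row stands at -0.85 in oligodendrocytes as deposited and -0.12 after subtraction. The right side holds only members still tested after subtraction.

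Heat shock proteins and their partners were called lower more often than higher in neurons and oligodendrocytes. Of 37 tested in excitatory neurons 8 fell and 0 rose (background 6.70% lower), of 34 in inhibitory neurons 4 fell and 0 rose (background 1.71% lower), and of 35 in oligodendrocytes 7 fell and 0 rose (background 10.7% lower). After subtraction of free RNA the numbers lower were 8, 4 and 8. In excitatory neurons the count was 5, 3 and 3 without young 1, 2 and 3 in turn, and 8, 3 and 4 without aged 1, 2 and 3. It was 3, 4 and 2 without young 1, 2 and 3 in turn, and 5, 0 and 0 without aged 1, 2 and 3 in inhibitory neurons, and in oligodendrocytes 9, 4 and 4 without young 1, 2 and 3 in turn, and 7, 6 and 3 without aged 1, 2 and 3. Hsph1 (chr5:149614287-149636376, minus strand), also called Hsp105, is the exchange factor that resets Hsp70 after each round of refolding. It measured 73.7, 67.1 and 82.1 CPM in the young and 31.3, 31.0 and 37.3 CPM in the aged libraries in excitatory neurons (-1.16 ± 0.15, adjusted p = 0.0028). In inhibitory neurons the values were 68.5, 65.2 and 66.2 CPM in the young and 30.5, 24.5 and 34.3 CPM in the aged libraries (-1.16 ± 0.17, adjusted p = 0.016), and in oligodendrocytes 65.1, 96.7 and 104 CPM in the young and 25.4, 43.3 and 38.2 CPM in the aged libraries (-1.30 ± 0.26, adjusted p = 0.0043). The aged libraries were below the young in each of the 3 classes. Stip1, the adaptor that hands client proteins from Hsp70 to Hsp90, measured 42.9, 43.4 and 47.3 CPM in the young and 26.7, 25.1 and 31.7 CPM in the aged libraries in excitatory neurons (-0.68 ± 0.12, adjusted p = 0.0077) and changed by -0.94, adjusted p = 0.0041 in oligodendrocytes. Hspa4l, a further exchange factor of the Hsp105 family, fell in oligodendrocytes, where it measured 60.0, 105 and 144 CPM in the young and 37.6, 48.1 and 43.7 CPM in the aged libraries (-1.25 ± 0.25, adjusted p = 0.0042). Hsph1 and Stip1 kept their calls with any single library left out in excitatory neurons, and Hsph1, Hspa4l and Stip1 kept their calls with any single library left out in oligodendrocytes. In inhibitory neurons, Hsph1 and Hsp90b1 lost their calls without aged 2 or 3, Stip1 lost its call without young 3 or aged 2 or 3 and Dnaja1 lost its call without young 1 or 3 or aged 2 or 3. The abundant core chaperones did not pass the test in excitatory neurons, Hspa8 at -0.20 (adjusted p = 0.48) and Hsp90aa1 at 0.01 (adjusted p = 0.97). In astrocytes 3 of 35 members fell and 1 rose against a background of 6.50%, with Hsph1 at -1.06 (adjusted p = 0.014), and 0 were called lower after subtraction. In endothelial cells 1 of 20 was higher and 0 lower.

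Of 25 endoplasmic reticulum stress genes in excitatory neurons 9 were called lower and 0 higher, beside 6.70% of all genes called lower, with a median of -0.25 against 0.02 over all genes. Hsp90b1, Dnajc3 and Hspa5 stand in both this list and that of the heat shock proteins, and of these Hsp90b1 and Dnajc3 are counted among the genes called lower in both. Subtracting free RNA gave 9, and leaving out libraries gave 8, 5 and 1 without young 1, 2 and 3 in turn, and 9, 2 and 4 without aged 1, 2 and 3. Hsp90b1 (chr10:86690209-86705509, minus strand), known as GRP94, folds secreted and membrane proteins inside the endoplasmic reticulum. It measured 55.6, 67.4 and 84.8 CPM in the young and 33.5, 41.6 and 38.4 CPM in the aged libraries in excitatory neurons (-0.87 ± 0.15, adjusted p = 0.0080) and 62.3, 82.5 and 90.6 CPM in the young and 41.7, 40.9 and 38.0 CPM in the aged libraries in inhibitory neurons (-0.96 ± 0.14, adjusted p = 0.016), with no overlap between young and aged. Pdia3, Pdia4 and Pdia6 are protein disulfide isomerases, which form and rearrange disulfide bonds. Pdia4 measured 6.19, 11.2 and 15.6 CPM in the young and 4.89, 3.55 and 4.37 CPM in the aged libraries (-1.37 ± 0.28, adjusted p = 0.013), and Pdia3 and Pdia6 changed by -0.78 and -0.80 (adjusted p = 0.0096 and 0.013). In excitatory neurons Hsp90b1 kept its call with any single library left out, Pdia3 lost its call without young 3, Pdia4 lost its call without young 3 or aged 2 and Pdia6 lost its call without young 3 or aged 2 or 3. The best known members did not pass the test in this class, Hspa5 (BiP, the main chaperone of the compartment) at -0.25 (adjusted p = 0.42), Calr (calreticulin) at -0.39 (0.089), and the transcription factors Xbp1 at -0.25 (0.32) and Atf4 at 0.31 (0.24). In oligodendrocytes 1 of 24 genes was called lower and 1 higher, beside 10.7% and 11.2% of all genes. In astrocytes 1 of 23 was lower (background 6.50%), and in inhibitory neurons 4 of 24 were (background 1.71%). After subtraction 1 was called lower in inhibitory neurons and 0 in astrocytes.

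Some promoters of this response are known to carry the endoplasmic reticulum stress element, which is bound by ATF6 and NF-Y. It was searched as CCAAT, then 9 bases of any kind (N), then CCACG, on both strands, from 250 bases before to 50 bases after each gene's start in the RefSeq annotation of GRCm38.p6. Of 26 measured members 24 matched a promoter, 8 of these 24 (33.3%) held the element and 37 of all 27025 genes (0.137%) did. The 8 windows are shown because they carry the element that the list is named for, on the strand of the gene, 5′ to 3′, with the element in capitals and 15 bases on each side.
Hsp90b1, chr10:86705518-86705671, minus strand: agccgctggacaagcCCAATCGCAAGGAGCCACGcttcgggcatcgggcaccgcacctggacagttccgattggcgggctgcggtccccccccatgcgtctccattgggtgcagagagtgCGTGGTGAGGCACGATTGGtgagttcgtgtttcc
Pdia6, chr12:17266476-17266524, plus strand: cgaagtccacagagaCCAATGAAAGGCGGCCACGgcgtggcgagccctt
Dnajc3, chr14:118937812-118937860, plus strand: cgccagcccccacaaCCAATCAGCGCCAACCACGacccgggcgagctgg
Canx, chr11:50325785-50325833, minus strand: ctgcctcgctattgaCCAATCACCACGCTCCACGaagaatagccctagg
Syvn1, chr19:6046517-6046565, plus strand: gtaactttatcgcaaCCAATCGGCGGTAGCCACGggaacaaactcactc
Hspa5, chr2:34772010-34772058, plus strand: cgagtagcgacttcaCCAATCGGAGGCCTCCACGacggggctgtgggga
Calr, chr8:84847060-84847108, minus strand: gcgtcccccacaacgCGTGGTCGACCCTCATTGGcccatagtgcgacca
Creld2, chr15:88819505-88819553, plus strand: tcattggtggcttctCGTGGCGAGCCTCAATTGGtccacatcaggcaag
All 8 windows lie before the start of the gene, the first element of Hsp90b1 beginning at position -212 and that of Syvn1 at position -44, counted from the start. In excitatory neurons 5 of the 8 genes with the element were called lower, at a median log2 fold change of -0.53, and 4 of the 15 tested genes of the list without it, at a median of -0.09. These are counts over few genes and describe the letters of the window, not binding. In oligodendrocytes 0 of the 8 and 1 of 14 were called lower. The heat shock list gave no such split for the heat shock element, searched as TTC, GAA and TTC or GAA, TTC and GAA with 2 bases of any kind between them, on both strands. Of 30 matched promoters 4 held it (13.3%), beside 0.662% of all genes. In excitatory neurons the median log2 fold change was -0.20 over the 4 genes with it and -0.25 over the 24 without, with 1 and 7 called lower.

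Genes that neurons switch on with activity were lower in part. In excitatory neurons 7 of 34 immediate-early activity genes fell and 1 rose (3, 4 and 1 without young 1, 2 and 3 in turn, and 8, 2 and 4 without aged 1, 2 and 3), beside 6.70% of all genes lower and 7.56% higher. Homer1 (chr13:93299635-93405129, plus strand), a scaffold of metabotropic glutamate receptors whose short form is induced by activity, measured 590.1, 803 and 619 CPM in the young and 383, 379 and 337 CPM in the aged libraries (-0.87 ± 0.12, adjusted p = 0.0049), the aged libraries all below the young. Egr3, a transcription factor of the same response, changed by -1.03, adjusted p = 0.010. The classical members Fos at -0.21 (adjusted p = 0.69), Egr1 at -0.33 (0.32), Npas4 at -0.52 (0.090) and Arc at -0.91 (0.086) did not pass. Homer1 kept its call with any single library left out and Egr3 lost its call without young 3. Jund, a member of the AP-1 family whose RNA is present without stimulation, rose in inhibitory neurons by 1.07 (adjusted p = 0.016), where Jund lost its call without young 3 or aged 2 or 3, and in oligodendrocytes Jun measured 6.71, 5.24 and 8.53 CPM in the young and 13.3, 38.1 and 17.0 CPM in the aged libraries (1.75 ± 0.36, adjusted p = 0.0049). Clock genes were called lower in one class and higher in another, and the difference was not tested over the list. In excitatory neurons 4 of 21 clock genes were lower and 1 higher, with the repressor Per2 at -0.85, adjusted p = 0.0099, which lost its call without young 3. In astrocytes 5 of 20 were higher (background 4.31%) and 0 lower, and 1 was higher after subtraction, with Dbp, an output factor of the clock, at 25.6, 26.4 and 25.7 CPM in the young and 50.4, 40.5 and 49.7 CPM in the aged libraries (0.86 ± 0.15, adjusted p = 0.0033), and the repressor Cry2 at 0.72, adjusted p = 0.0068. Dbp and Cry2 kept their calls with any single library left out. The hour at which each mouse was killed is not given in the sources used here, so age and hour of collection cannot be told apart for these genes.

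Part of the postsynaptic machinery was lower in excitatory neurons. Of 42 scaffolds and kinases 11 were called lower and 1 higher (9, 9 and 4 without young 1, 2 and 3 in turn, and 12, 7 and 8 without aged 1, 2 and 3), beside 6.70% of all genes, and 14 were lower after subtraction. The median span of the list was 103 kb, and of all genes over 100 kb in this class 10.1% were called lower. The 7 marker genes of the class itself summed to 1677 to 1849 CPM in aged and 1957 to 2168 CPM in young mice, without overlap, and their part in these falls was not tested. Dlg4 (chr11:70016942-70047522, plus strand), which encodes PSD-95, the main scaffold of the postsynaptic density, measured 156, 153 and 168 CPM in the young and 94.4, 87.7 and 77.0 CPM in the aged libraries (-0.88 ± 0.14, adjusted p = 0.0057). Cacng2 (chr15:77991748-78120028, minus strand), stargazin, which brings AMPA receptors to the synapse, measured 133, 125 and 139 CPM in the young and 76.8, 75.4 and 66.2 CPM in the aged libraries (-0.86 ± 0.14, adjusted p = 0.0062). Neither gene overlapped between the groups. Cacng8, a relative of Cacng2, changed by -0.79, adjusted p = 0.010, and Camkk1, a calcium-activated kinase, by -0.76, adjusted p = 0.015. Among AMPA and NMDA receptor genes as a whole 5 of 23 were lower and 2 higher, and among synaptic adhesion genes 4 of 54 were lower, with the presynaptic organiser Nrxn2 at -0.71, adjusted p = 0.0080, and 2 higher, a share near that of all genes. Of 60 active zone and release genes 7 were lower and 1 higher, with the vesicle protein Sv2c at -0.89, adjusted p = 0.0049. Dlg4, Cacng2, Nrxn2 and Sv2c kept their calls with any single library left out and Cacng8 and Camkk1 lost their calls without young 3. Inhibitory neurons showed 1 called lower of 42 postsynaptic genes, near the 1.71% of all genes called lower in that class.

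Of 45 neurotrophin and FGF ligands and receptors in excitatory neurons 6 were called higher and 5 lower, beside 7.56% and 6.70% of all genes, and after subtraction 2 and 4 of 38. Ntrk2 (chr13:58806569-59133970, plus strand), the receptor TrkB for brain-derived neurotrophic factor, measured 1278, 1326 and 1354 CPM in the young and 635, 814 and 692 CPM in the aged libraries (-0.89 ± 0.12, adjusted p = 0.0034). Fgf1, an acidic fibroblast growth factor, measured 12.8, 16.5 and 11.6 CPM in the young and 39.8, 39.9 and 41.5 CPM in the aged libraries (1.57 ± 0.16, adjusted p = 0.0016, and 2.23, adjusted p = 0.0044 after subtraction), and its receptor Fgfr1 changed by -0.97, adjusted p = 0.0028. The ligand Fgf1 was higher and both receptors lower, without overlap between groups in any of the 3. Ntrk2, Fgf1 and Fgfr1 kept their calls with any single library left out. Of 37 insulin and FOXO signalling genes 6 were lower and 0 higher (4, 4 and 1 without young 1, 2 and 3 in turn, and 10, 2 and 3 without aged 1, 2 and 3). Irs2 (chr8:10984681-11008458, minus strand), an adaptor of the insulin receptor, measured 25.0, 24.0 and 29.5 CPM in the young and 15.9, 11.1 and 15.6 CPM in the aged libraries (-0.89 ± 0.15, adjusted p = 0.0077). The receptor Insr itself stood at -0.07 (adjusted p = 0.55) and Foxo3, a factor much studied in ageing, at -0.33 (0.11), and neither passed. Of 53 TGF-beta and BMP genes 12 were lower and 1 higher (9, 6 and 2 without young 1, 2 and 3 in turn, and 15, 4 and 4 without aged 1, 2 and 3), and 9 lower after subtraction. Smad5, which carries BMP signals to the nucleus, measured 8.64, 13.6 and 10.6 CPM in the young and 6.41, 5.12 and 4.72 CPM in the aged libraries (-1.02 ± 0.18, adjusted p = 0.0094), and Smad3, its TGF-beta counterpart, changed by -1.01, adjusted p = 0.0099. Irs2 and Smad5 kept their calls with any single library left out and Smad3 lost its call without young 3.

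Some regulators of chromatin and splicing were lower in excitatory neurons and oligodendrocytes. Of 111 DNA methylation and chromatin modifiers in excitatory neurons 15 were lower and 2 higher (9, 10 and 2 without young 1, 2 and 3 in turn, and 22, 6 and 6 without aged 1, 2 and 3), and of 110 in oligodendrocytes 18 and 2 (14, 8 and 7 without young 1, 2 and 3 in turn, and 23, 6 and 5 without aged 1, 2 and 3). Tet3 (chr6:83362373-83459084, minus strand), an enzyme that oxidises methylated cytosine, measured 168, 179.8 and 209.9 CPM in the young and 111, 103 and 101 CPM in the aged libraries in excitatory neurons (-0.83 ± 0.11, adjusted p = 0.0046), and Kdm4d, a histone demethylase, rose by 1.28 (adjusted p = 0.0056). In oligodendrocytes Smarcc1, a core subunit of the BAF remodelling complex, measured 85.6, 110.0 and 101 CPM in the young and 71.2, 45.9 and 38.3 CPM in the aged libraries (-0.94 ± 0.20, adjusted p = 0.0062). Every aged library lay below every young one for Tet3 and Smarcc1. Of 93 splicing and cold-inducible RNA-binding genes 13 were lower and 3 higher in excitatory neurons, and of 92 14 and 7 in oligodendrocytes. Srsf6, an SR splicing factor, measured 52.7, 48.1 and 52.2 CPM in the young and 35.1, 24.8 and 24.4 CPM in the aged libraries (-0.86 ± 0.15, adjusted p = 0.0077), and Clk1, the kinase of SR proteins, changed by -0.66, adjusted p = 0.0071. Tet3, Kdm4d, Srsf6 and Clk1 kept their calls with any single library left out. In excitatory neurons 13.5% of the chromatin list and 14.0% of the splicing list were lower, beside 6.70% of all genes, and in oligodendrocytes 16.4% and 15.2% beside 10.7%. After subtraction 15 and 10 were called lower in oligodendrocytes. The median span was 51.8 kb for the chromatin list and 17.8 kb for the splicing list. Of all genes of 50 to 100 kb 12.2% were called lower in excitatory neurons and 17.1% in oligodendrocytes. The shares were 3.79% and 2.74% for genes of 5 to 20 kb. The part of gene length in these falls was not tested.

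Zinc-finger and protocadherin genes, 2 families of clustered genes, were called higher in excitatory neurons at about the share of all genes. Of 351 KRAB and C2H2 zinc-finger genes 31 were higher, a share of 8.83% beside the background of 7.56%. Of the same genes 8 were lower, beside 6.70% of all genes. Of 49 clustered protocadherins, adhesion proteins whose combinations label single neurons, 5 were higher and 0 lower, a share of 10.2%. Both shares are near the background. Pcdhb19 measured 5.78, 6.42 and 5.89 CPM in the young and 10.7, 11.6 and 10.4 CPM in the aged libraries (0.85 ± 0.13, adjusted p = 0.0056) and Pcdhb17 changed by 0.67, adjusted p = 0.011. In astrocytes 5 of 18 were higher and 1 lower, beside 4.31% and 6.50% of all genes. Pcdhb14 there measured 13.6, 17.2 and 13.5 CPM in the young and 43.9, 36.6 and 24.7 CPM in the aged libraries (1.23 ± 0.23, adjusted p = 0.0045). Over all genes 1363 were called in astrocytes as deposited and 80 after subtraction. In excitatory neurons Pcdhb19 and Pcdhb17 kept their calls with any single library left out. These genes are close copies of each other, so reads could be split between them.

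**Figure D4:**
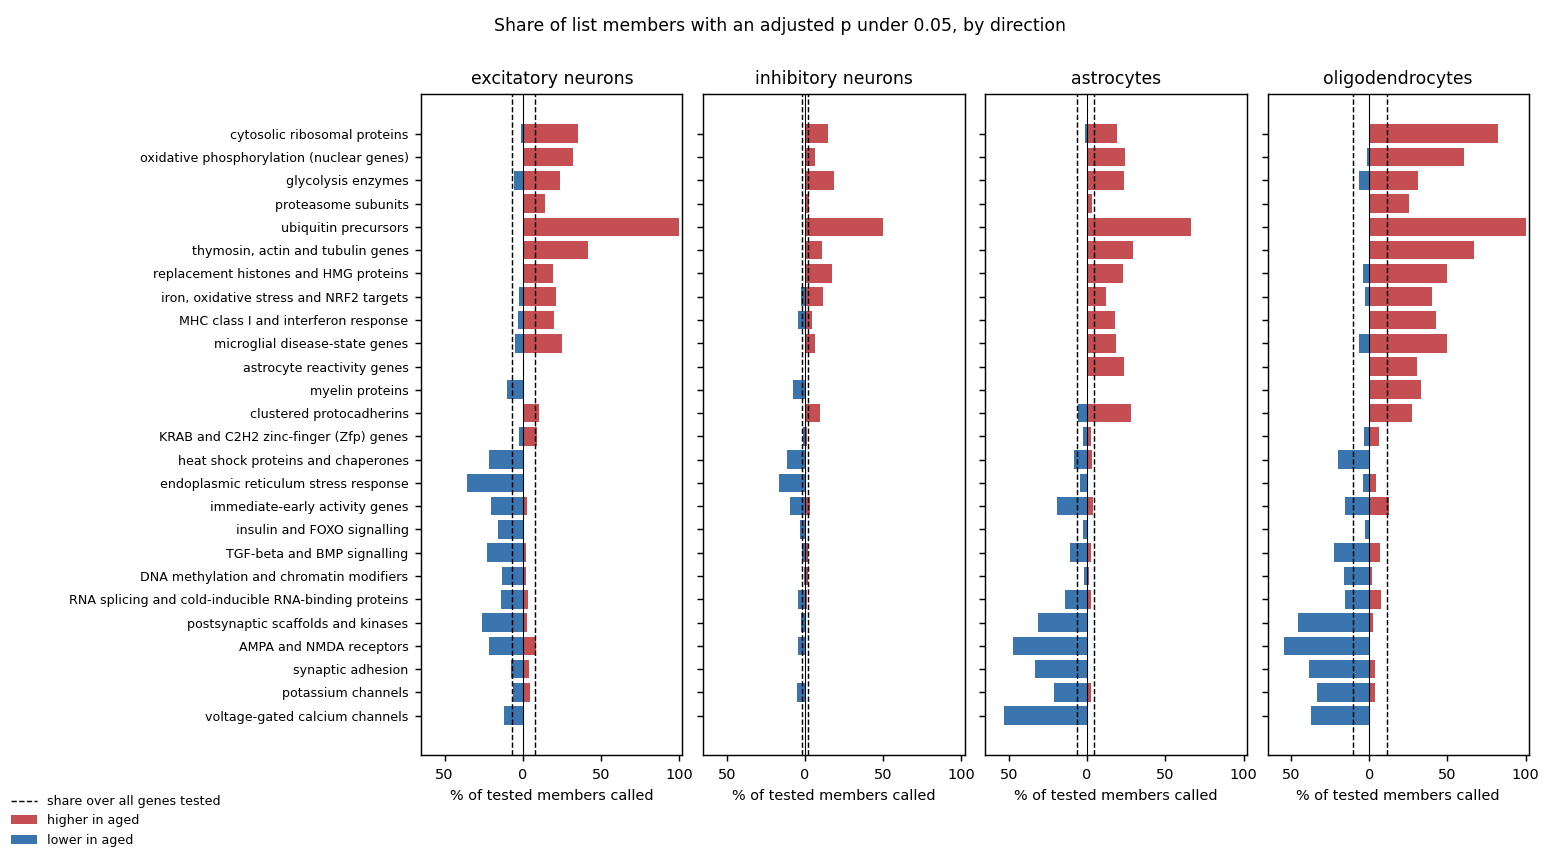
Percentage of tested members called higher (red, to the right) or lower (blue, to the left) in aged mice for each gene list (rows) in excitatory neurons, inhibitory neurons, astrocytes and oligodendrocytes (panels), with dashed lines at the share over all genes tested. In excitatory neurons the endoplasmic reticulum stress list reaches 36.0% lower against 6.70% of all genes, and in oligodendrocytes the ribosomal list reaches 82.5% higher against 11.2%.

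Genes of the interferon response and of antigen presentation were called higher more often than lower in several classes. The list was not compared between classes by a test. In oligodendrocytes 9 of 21 were called higher (background 11.2%) and 0 lower, and in excitatory neurons 7 of 35 (7.56%) and 1. In astrocytes the counts were 5 of 28 (4.31%) and 0, in microglia 3 of 27 (3.48%) and 0, in endothelial cells 2 of 17 (1.86%) and 0, and in inhibitory neurons 1 of 22 (2.23%) and 1. Microglial markers in the excitatory class summed to 40.3 to 42.1 CPM in aged and 26.8 to 37.9 CPM in young mice, with 2 of 7 lower, and their part in the result was not tested. Without single libraries the numbers higher were 7, 5 and 4 without young 1, 2 and 3 in turn, and 11, 5 and 5 without aged 1, 2 and 3 in oligodendrocytes, and 3, 1 and 0 without young 1, 2 and 3 in turn, and 15, 1 and 1 without aged 1, 2 and 3 in excitatory neurons. After subtraction the numbers higher were 3 in oligodendrocytes, 8 in excitatory neurons and 0 in the other classes. Eif2ak2 (chr17:78852564-78882573, minus strand), the kinase PKR that halts translation on double-stranded RNA, measured 1.87, 1.01 and 1.06 CPM in the young and 2.91, 3.11 and 4.49 CPM in the aged libraries in excitatory neurons (1.41 ± 0.27, adjusted p = 0.010, and 2.64, adjusted p = 0.012 after subtraction). Irf9, a subunit of the factor that carries type I interferon signals, measured 10.9, 10.5 and 13.5 CPM in the young and 6.0, 3.42 and 3.72 CPM in the aged libraries (-1.42 ± 0.26, adjusted p = 0.0096), and it overlaps Rnf31 on the same strand. Xaf1, an interferon-induced gene linked to cell death, measured 36.8, 29.5 and 30.6 CPM in the young and 67.6, 64.5 and 64.1 CPM in the aged libraries in oligodendrocytes (1.01 ± 0.15, adjusted p = 0.0016), and Rnf213, a large ubiquitin ligase, changed by 0.80, adjusted p = 0.011. Eif2ak2 and Irf9 lost their calls without young 3, Tap2 and Irf1 lost their calls without young 2 or 3 or aged 2 or 3 and H2-D1 lost its call without young 1, 2 or 3 or aged 2 or 3 in excitatory neurons, and Xaf1 and Rnf213 kept their calls with any single library left out in oligodendrocytes. The level of Eif2ak2 in excitatory neurons was 0.40 of that in the whole libraries. Promoters of the list were searched for the core of the interferon-stimulated response element, GAAA, then 2 bases of any kind, then GAAA, on both strands, and 21 of 47 matched promoters held it, against 3.99% of all genes. In excitatory neurons 1 of the 13 tested genes with it and 4 of the 18 without it were called higher, and in oligodendrocytes 2 of 6 and 5 of 12. One with a pair of matches is Ifit3, shown with the matches in capitals.
Ifit3, chr19:34583358-34583431, plus strand: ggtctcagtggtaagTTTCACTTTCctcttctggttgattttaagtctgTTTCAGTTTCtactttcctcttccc

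Oligodendrocytes had 2891 called genes as deposited, against 2405 in excitatory neurons, and the order was the other way round after subtraction, 1021 against 2205, and with DESeq2 on the deposited counts, 2647 against 2884. C4b (chr17:34728380-34743882, minus strand), complement component 4, which tags material for removal, measured 11.8, 5.71 and 17.9 CPM in the young and 162, 67.0 and 60.9 CPM in the aged libraries (3.05 ± 0.40, adjusted p = 0.0014). The lowest aged library was above the highest young one. Its copy C4a has nearly the same sequence, so the split of reads between them is uncertain. Of 30 myelin genes 10 were higher (background 11.2%) and 0 lower, and 4 were higher after subtraction (10, 9 and 9 without young 1, 2 and 3 in turn, and 13, 9 and 10 without aged 1, 2 and 3 as deposited). Olig2 (chr16:91225457-91228677, plus strand), the transcription factor that specifies the lineage, measured 25.2, 20.2 and 16.2 CPM in the young and 28.7, 136 and 89.5 CPM in the aged libraries (2.03 ± 0.44, adjusted p = 0.0071). Opalin, a protein of myelin loops, measured 279, 214 and 212 CPM in the young and 534, 535 and 508 CPM in the aged libraries (1.16 ± 0.19, adjusted p = 0.0019) and Cnp, an enzyme of uncompacted myelin, changed by 0.97, adjusted p = 0.0017. The major structural gene Mbp stood at 0.22 (adjusted p = 0.30) and did not pass. C4b, Olig2, Opalin and Cnp kept their calls with any single library left out, and after free RNA subtraction C4b, Olig2, Opalin and Cnp were still called.

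Iron and oxidative stress genes were called higher more often than lower in the same class. Of 35 iron, oxidative stress and NRF2 genes 14 were higher and 1 lower (11, 11 and 9 without young 1, 2 and 3 in turn, and 18, 9 and 8 without aged 1, 2 and 3), beside 11.2% of all genes called higher, and 6 were higher after subtraction. Fth1 (chr19:9980598-9985098, plus strand), the heavy chain of ferritin, measured 145, 202 and 248 CPM in the young and 413, 782 and 531 CPM in the aged libraries (1.54 ± 0.23, adjusted p = 0.0016), and in excitatory neurons it changed by 1.27, adjusted p = 0.0080. Of 32 lipid transport genes 6 were higher and 5 lower, and 3 and 1 after subtraction. Apoe (chr7:19696109-19699188, minus strand), the main lipid carrier of the brain, measured 109, 95.5 and 62.1 CPM in the young and 140.1, 261 and 197 CPM in the aged libraries in oligodendrocytes (1.16 ± 0.24, adjusted p = 0.0052). It was higher also in precursors (1.14, adjusted p = 6.8e-04), astrocytes (1.13, adjusted p = 0.0039) and microglia (1.06, adjusted p = 0.0052), without overlap in any of the 4. Lamp1, a glycoprotein of the lysosome membrane, changed by 1.02, adjusted p = 0.0015, while 6 of 49 lysosome genes were called higher, near the share of all genes, and 2 after subtraction. Fth1, Apoe and Lamp1 kept their calls with any single library left out in oligodendrocytes. After subtraction Apoe was still called in oligodendrocytes and precursors but not in astrocytes or microglia. Tsc22d3, a glucocorticoid-induced gene also called GILZ, measured 217, 307 and 396 CPM in the young and 146, 188 and 190.2 CPM in the aged libraries (-0.81 ± 0.19, adjusted p = 0.0092), lower in every aged library. Of the 19 glucocorticoid genes tested it was the only one called, with 1 lower and 0 higher. That share lies below the 10.7% of all genes called lower in oligodendrocytes.

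Oligodendrocyte precursors, the dividing cells that renew the lineage, had fewer calls. Olig2 measured 58.3, 53.9 and 36.5 CPM in the young and 109, 195 and 127 CPM in the aged libraries (1.53 ± 0.21, adjusted p = 4.7e-04), higher in every aged library, as in oligodendrocytes. Smurf1, a ubiquitin ligase that limits BMP signalling, measured 75.2, 73.9 and 65.3 CPM in the young and 33.6, 27.7 and 37.7 CPM in the aged libraries (-1.12 ± 0.20, adjusted p = 0.0038). Olig2, Apoe, H3f3b and Smurf1 kept their calls with any single library left out. After subtraction Olig2, Apoe, H3f3b and Smurf1 were still called. Of 32 heat shock genes 2 were lower (background 2.25%) and 0 after subtraction, with Hsp90b1 at -0.80, adjusted p = 0.020. Hsp90b1 lost its call without young 2 or 3 or aged 3. Of the 60 calls of genes named by the rule in this class 17 were kept without aged 2, and 10 after subtraction of free RNA.

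In astrocytes Cst3, S100b and Fabp5 were among the genes called higher. Cst3 (chr2:148871722-148875692, minus strand), cystatin C, an inhibitor of cathepsins, measured 266, 263 and 200.4 CPM in the young and 537, 846 and 742 CPM in the aged libraries (1.54 ± 0.18, adjusted p = 6.2e-04). S100b, a calcium-binding protein of astrocytes, measured 25.6, 23.9 and 27.3 CPM in the young and 45.0, 58.6 and 46.0 CPM in the aged libraries (0.97 ± 0.18, adjusted p = 0.0046), and Fabp5, which binds fatty acids, changed by 0.98, adjusted p = 0.0046. Each lay higher in every aged library. Of 17 astrocyte reactivity genes 4 were called higher (background 4.31%) and 0 lower, and 0 after subtraction. Gfap, the filament protein that defines reactive astrocytes, measured 57.4, 50.6 and 49.9 CPM in the young and 49.9, 122 and 116 CPM in the aged libraries (0.87 ± 0.24, adjusted p = 0.035) with overlapping libraries, and Gfap lost its call without young 1, 2 or 3 or aged 2 or 3. Vim at 0.52 (adjusted p = 0.35) and Clu at 0.62 (0.057) did not pass. Of 25 genes for transmitter uptake, water and potassium transport and coupling 1 was higher and 0 lower. Cst3, S100b and Fabp5 kept their calls with any single library left out. After subtraction Cst3 was still called and S100b and Fabp5 were not. The class was sensitive to processing, since 12 of its 168 named calls were kept after subtraction and 26 when doublets were not removed.

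In microglia 3 of 13 complement genes were called higher and 2 lower, beside 3.48% and 6.34% of all genes, and 1 and 0 after subtraction. Of 21 lipid transport genes 2 were higher and 2 lower, and 0 and 0 after subtraction. C1qa (chr4:136895917-136898803, minus strand), 1 of the 3 chains of the starter of the classical complement pathway, measured 56.4, 49.7 and 108 CPM in the young and 173, 196 and 246 CPM in the aged libraries (1.57 ± 0.26, adjusted p = 0.0014), and C1qb and C1qc changed by 1.12 and 1.32 (adjusted p = 0.0054 and 0.0052). P2ry12, a purine receptor that marks resting microglia, measured 722, 532 and 491 CPM in the young and 1162, 1131 and 1298 CPM in the aged libraries (1.04 ± 0.18, adjusted p = 0.0023), and Cst3 273, 189.9 and 232 CPM in the young and 552, 734 and 702 CPM in the aged libraries (1.51 ± 0.18, adjusted p = 3.4e-04). The aged libraries were above the young for all 5 genes. C1qa spans under 5 kb, and of all microglial genes that short 19.0% were called higher. The part of gene length in these rises was not tested. Of 15 disease-state genes 5 were higher and 0 lower, and of 20 homeostatic genes 2 were higher and 0 lower. After subtraction 0 and 1 were called higher. Trem2, a lipid receptor of the disease-associated state, stood at 0.36 (adjusted p = 0.54) and Tmem119 at 0.49 (0.44). C1qa, C1qb, C1qc, P2ry12 and Cst3 kept their calls with any single library left out. After subtraction C1qa and Cst3 were still called and C1qb, C1qc and P2ry12 were not. The summed level of the 7 microglial marker genes in this class was itself higher in aged mice, 5753 to 7060 CPM against 3864 to 4682 CPM, with 0 of 7 lower, beside the smaller share of free RNA. The class also held macrophage marker genes, summed to 402 to 2277 CPM in young and 864 to 992 CPM in aged libraries. Their part in these results was not tested. Of the 83 named calls 6 were kept after subtraction.

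Brain endothelial cells, in which the viral promoter is active, were the smallest of the 7 classes tested, with 51 to 121 nuclei in a library. Cdh5 (chr8:104101625-104144511, plus strand), the VE-cadherin of their junctions, measured 199, 193 and 197 CPM in the young and 335, 473 and 477 CPM in the aged libraries (1.13 ± 0.24, adjusted p = 0.028). Pde8b, a phosphodiesterase that degrades cyclic AMP, measured 380.2, 462 and 462 CPM in the young and 142, 176 and 136 CPM in the aged libraries (-1.52 ± 0.25, adjusted p = 0.021), in a class where 0.486% of all genes were called lower. Pde8b lost its call without young 1 or 3 or aged 3 and Cdh5 lost its call without young 1, 2 or 3 or aged 2 or 3. Neither was called when doublets were not removed or in a fit of the 6 AAV-EGFP libraries alone, and after subtraction Pde8b was still called and Cdh5 was not (0.84, adjusted p = 0.24). Of 33 barrier and transport genes 3 were higher (background 1.86%) and 0 lower, and after subtraction 0 were. The endothelial markers summed to 15760 to 18430 CPM in aged and 10180 to 13560 CPM in young mice. Mucin-type O-glycans, the sugar chains that the series addresses through B3GNT3, are started by GALNT enzymes and extended by C1GALT1. Of 23 such enzymes tested 1 was lower and 0 higher. C1galt1 measured 65.2, 37.8 and 58.4 CPM in the young and 58.6, 40.1 and 51.1 CPM in the aged libraries (-0.11 ± 0.41, adjusted p = 0.93). B3gnt3 had too few counts to be tested in any class. In oligodendrocytes Galnt5, 1 of the initiating enzymes, measured 13.6, 30.7 and 30.3 CPM in the young and 77.4, 100.4 and 93.5 CPM in the aged libraries (1.89 ± 0.36, adjusted p = 0.0038). Galnt5 overlaps Ermn, a myelin gene, on the opposite strand, and whether the counting used strand is not given in the sources used here. Opposite-strand genes also overlap other named genes, so part of their counts is uncertain in the same way. Among them are P2ry12 (Med12l), S100b (Dip2a), Cnp (Dnajc7), Fgf1 (Arhgap26), Dbp (Sphk2), Lamp1 (Grtp1), Pdia6 (Atp6v1c2) and Smarcc1 (Dhx30).

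Neuronal genes were lower in glial classes, beside the lower free RNA. Synaptic adhesion genes were called lower for 17 of 51 in astrocytes (background 6.50%), 20 of 52 in oligodendrocytes (10.7%) and 20 of 39 in microglia (6.34%). AMPA and NMDA receptor genes were lower for 10 of 21, 12 of 22 and 9 of 12 in the same classes. Of all genes over 100 kb 21.6%, 31.8% and 21.2% were called lower in these classes. After subtraction of free RNA 0, 2 and 3 adhesion genes and 0, 0 and 0 receptor genes were called lower. Members that subtraction left with too few counts were no longer tested and stand here as not called. These numbers therefore do not show that the falls were gone. Markers of excitatory neurons summed to 125 to 257 CPM in aged against 272 to 315 CPM in young astrocytes, 149 to 273 against 325 to 366 CPM in oligodendrocytes and 168 to 349 against 399 to 444 CPM in microglia. In astrocytes 6 of the 7 markers were lower and 0 were at zero. Grin2a, an NMDA receptor subunit, measured 263, 193 and 259 CPM in the young and 75.9, 105 and 66.5 CPM in the aged libraries in astrocytes, 0.10 of its level in the whole libraries.

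Whether a change differed between classes was tested for each gene in a joint limma fit over class sums with the mouse as a fixed effect. Among 9464 genes measured in excitatory neurons, inhibitory neurons, astrocytes, oligodendrocytes and precursors the age change differed among the 5 classes for 34.9%. Set against the mean of the other 4, it differed for 23.6% of genes in oligodendrocytes, 14.4% in inhibitory neurons and 12.8% in astrocytes. The shares were smaller in excitatory neurons at 6.53% and precursors at 4.51%. For microglia against the 5 it was 9.55% of 7130 genes. In excitatory neurons Fgf1 rose by more than the mean of the other 4 (difference 1.32 ± 0.19, adjusted p = 4.2e-05). Cdh7, a cadherin, did so too (difference 1.26 ± 0.16, adjusted p = 3.1e-05). In oligodendrocytes, which are among the classes of that mean, Fgf1 was called lower (-0.71, adjusted p = 0.014). Its mean level there was 83.7 CPM in young and 50.9 CPM in aged mice. In inhibitory neurons Sema3a, a repulsive guidance factor, rose (0.74 ± 0.15, adjusted p = 0.029, difference 1.38 ± 0.20, adjusted p = 1.3e-05), and Sema3a lost its call without young 1 or 3 or aged 2 or 3. Both C4b (difference 2.03 ± 0.35, adjusted p = 7.6e-05) and Adamts1, a metalloproteinase of the matrix (difference 2.04 ± 0.29, adjusted p = 4.5e-06), rose by more in oligodendrocytes than the mean of the other 4 classes in the fit.

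Fam155a, which encodes a subunit of the sodium leak channel complex, measured 614, 564 and 648 CPM in the young and 2109, 3160.1 and 2451 CPM in the aged libraries in oligodendrocytes (2.08 ± 0.39, adjusted p = 0.0033), a difference from the other classes of 2.40 ± 0.22, adjusted p = 1.8e-09. In astrocytes the same gene measured 475, 429 and 513 CPM in the young and 198, 232 and 138 CPM in the aged libraries (-1.32 ± 0.23, adjusted p = 0.0034). It was called higher in the first class and lower in the second, where its level was 0.12 of that in the whole libraries and where subtraction left 0 counts in all 6 libraries. In oligodendrocytes subtraction left 0 counts in the 3 young and 5731, 9616 and 10631 in the aged libraries, so the size of the rise depends on the subtraction and no fold is given for it. In astrocytes Cped1 rose, with 68.3, 46.6 and 65.7 CPM in the young and 155, 177 and 154 CPM in the aged libraries (1.43 ± 0.17, adjusted p = 6.2e-04, difference 1.89 ± 0.29, adjusted p = 3.1e-05), and Adgrv1, a very large adhesion receptor, fell, with 38.7, 43.3 and 41.6 CPM in the young and 15.2, 19.0 and 15.5 CPM in the aged libraries (-1.31 ± 0.20, adjusted p = 0.0013, difference -1.60 ± 0.31, adjusted p = 7.1e-04). In oligodendrocytes, which are among the classes of that mean, Adgrv1 was called higher, with 31.9, 56.2 and 55.9 CPM in the young and 135, 99.2 and 124 CPM in the aged libraries (1.32 ± 0.26, adjusted p = 0.0042). In microglia Cdk6, a kinase of the cell cycle, measured 165, 149 and 151 CPM in the young and 239, 371 and 475 CPM in the aged libraries (1.23 ± 0.22, adjusted p = 0.0026, difference 1.63 ± 0.23, adjusted p = 4.4e-06). In precursors Phlda1, a pleckstrin-homology protein, measured 44.5, 21.4 and 24.3 CPM in the young and 52.7, 93.1 and 84.0 CPM in the aged libraries (1.40 ± 0.26, adjusted p = 0.0050, difference 1.66 ± 0.23, adjusted p = 3.8e-05). Phlda1 lost its call without young 2 or aged 2 in precursors, while Cped1 and Adgrv1 in astrocytes, Fam155a and Adamts1 in oligodendrocytes and Cdk6 in microglia kept theirs with any single library left out. With free RNA subtracted, Cped1, Adgrv1 and Phlda1 were still called. Cdk6 was no longer called, at 0.999 (adjusted p = 0.062) in place of 1.23.

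**Figure D5:**
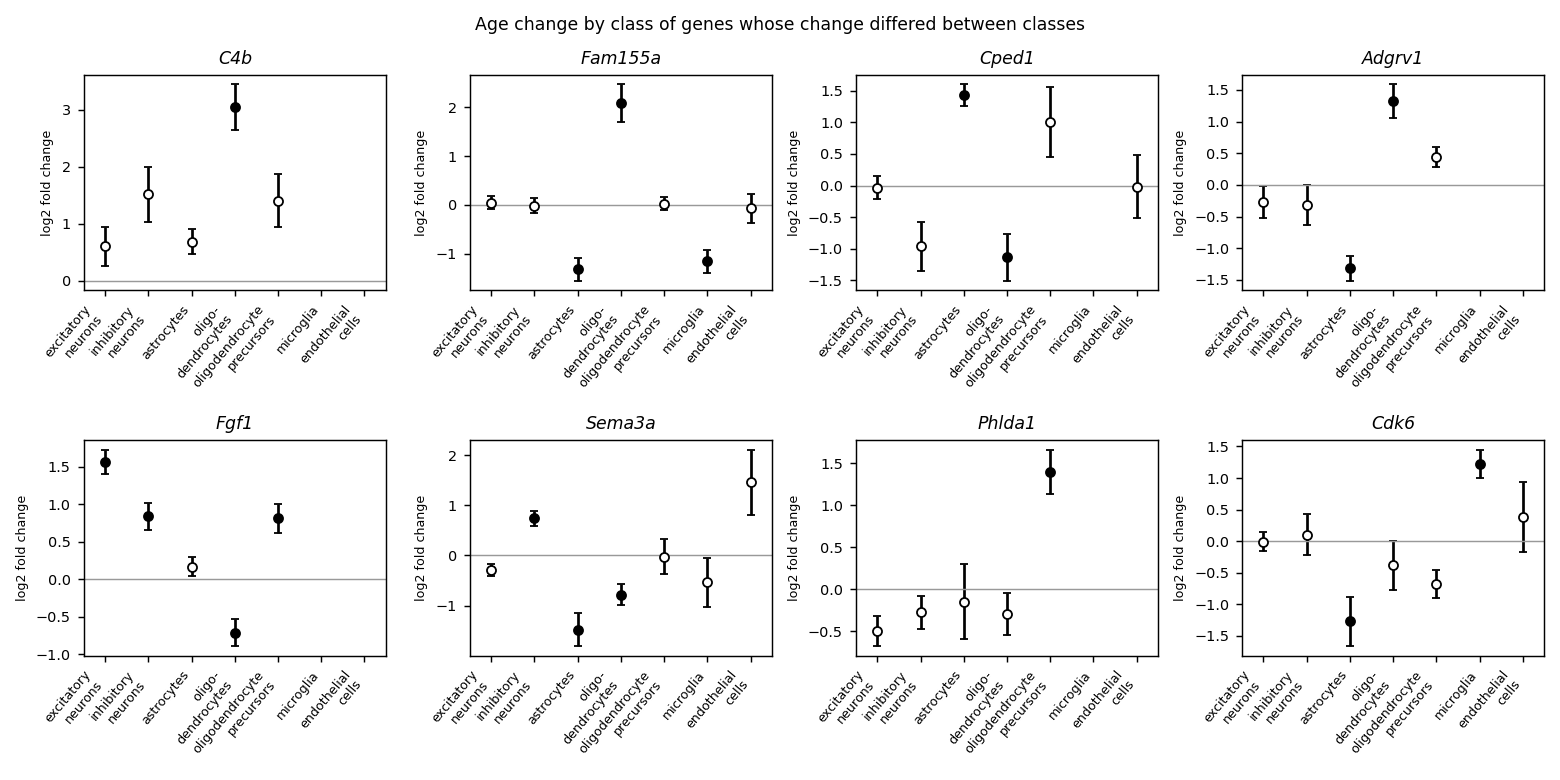
Log2 fold change, aged over young, (y axis, bars are its standard error) of C4b, Fam155a, Cped1, Adgrv1, Fgf1, Sema3a, Phlda1 and Cdk6 in each class where tested (x axis), filled where the adjusted p was under 0.05. C4b stands at 3.05 and Fam155a at 2.08 in oligodendrocytes, while Fam155a stands at -1.32 in astrocytes.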

How the data were processed

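Raw UMI counts per gene and nucleus were deposited by the authors for each library, aligned to GRCm38 (mm10) with Cell Ranger 4.0.0 per the labels, while the file headers name a later Cell Ranger version, and whether intronic reads were counted is not given in the sources used here. The study's own removal of free RNA and doublets was not in these counts. Nuclei within the stated limits were scored for doublets against simulated pairs, clustered (2000 variable genes, 15 principal components, Leiden resolution 0.3) and named where at least 3 markers passed. After the clusters were seen, 2 rules were added, which left unnamed a cluster of 2892 nuclei with both glutamatergic and GABAergic markers and 1 of 628 nuclei led by mitochondrial genes. UMIs were summed per library and class and tested with edgeR 4.0.16 (filterByExpr with a minimum count of 10, TMM, quasi-likelihood F test, 2-sided) over all 9 libraries, the contrast being aged AAV-EGFP minus young AAV-EGFP. DESeq2 1.42.0 was an alternative, and limma 3.58.1 (voom with quality weights) tested differences between classes. The edgeR fits per class and the joint limma fit were tried on simulated counts. The comparison and the 62 gene lists were chosen with earlier results of these data known, so no p-value is given for a list. Named members of a list had an adjusted p under 0.05, a mean of at least 50 counts per library and no overlap between groups, up to 4 per class and direction. The genes called in most classes, up to 10 per direction, were ranked by number of classes and then by mean absolute log2 fold change. They were not held to the limits on counts and overlap. Those with a called difference from the other classes, up to 4 per class and direction, followed the same limits. Well-known members are also given where they did not pass. Gfap was named after its values were seen. Genes without a gene name were not named, and some results are not reported here. Coordinates are of GRCm38 and counts carry counting error only within each library. The alternatives were RLE size factors, doublets retained, a finer clustering, testing genes without the low-count filter, the largest cluster of a class, no striatal-like clusters, only the 6 AAV-EGFP libraries, a replicate block, free RNA subtraction and leaving out each library.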

Additional observations from a re-analysis of the deposited data

Results flagged for a closer look

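The age change differed between classes, by the joint limma test with adjusted p under 0.05, for 3306 of 9464 genes over the 5 large classes. Against the mean of the other 4 classes it differed for 2234 genes in oligodendrocytes, 1366 in inhibitory neurons, 1216 in astrocytes, 618 in excitatory neurons and 427 in precursors, and for microglia against the 5 it differed for 681 of 7130 genes.

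Of the genes with the largest such differences, the age change in excitatory neurons exceeded the mean of the other classes by 1.32 on the log2 scale for Fgf1 and 1.26 for Cdh7, and in inhibitory neurons by 1.38 for Sema3a. In astrocytes the difference was 1.89 for Cped1, -1.60 for Adgrv1 and -1.85 for Fam155a. In oligodendrocytes Fam155a differed by 2.41, Adamts1 by 2.04 and C4b by 2.03, in precursors Phlda1 by 1.66, and in microglia Cdk6 by 1.63 and Fam155a by -1.43. For Fam155a the level was 0.12 of that of the whole libraries in astrocytes and 0.24 in microglia, and 0.59 in oligodendrocytes.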

How the results depend on the processing

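With 1 library left out in turn, the number of genes called ran from 1510 to 3859 in oligodendrocytes, 239 to 3684 in excitatory neurons, 534 to 2252 in astrocytes, 2 to 1373 in inhibitory neurons, 81 to 1164 in precursors, 391 to 991 in microglia and 0 to 481 in endothelial cells. The 0 without young 1 came from edgeR, with 700 genes at an unadjusted p under 0.05. Differences between classes ran from 2078 to 4263 over the 5 classes, 302 to 913 for excitatory neurons, 708 to 1719 for inhibitory neurons, 699 to 1553 for astrocytes, 1482 to 2689 for oligodendrocytes, 188 to 668 for precursors and 333 to 853 for microglia. Each highest value was without aged 1, and the cause was not tested.

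Subtraction of free RNA gave 1021 calls in oligodendrocytes, 168 in inhibitory neurons, 80 in astrocytes, 78 in precursors, 21 in microglia and 1 in endothelial cells, and 1537 differences over the 5 classes, 277 for excitatory neurons, 608 for inhibitory neurons, 344 for astrocytes, 1025 for oligodendrocytes, 202 for precursors and 126 for microglia. Without a filter on low counts there were 1612 calls in inhibitory neurons, 2051 in astrocytes, 754 in precursors and 277 in endothelial cells. Without doublet removal there were 144 in astrocytes and 1 in endothelial cells, and 376 differences for excitatory neurons and 410 for astrocytes. DESeq2 called 244 genes in precursors and 491 in microglia, the largest excitatory cluster alone gave 1568, and the 6 AAV-EGFP libraries alone gave 359 in inhibitory neurons and 0 in endothelial cells, where 692 genes had an unadjusted p under 0.05 and DESeq2 over all libraries called 86. Of named genes, Srcin1 in astrocytes turned to 0.93 after subtraction, Grin2a in endothelial cells to 0.56 without doublet removal, and Fgf1 in inhibitory neurons to -0.19 in the largest cluster. That largest inhibitory cluster is the one that carried striatal marker genes. The causes were not tested.

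The labels number the libraries but do not say whether same-numbered young and aged ones were processed together. Deviations of same-numbered libraries correlated at -0.147 to 0.157, and a shared batch was not tested beyond that. With the replicate block 214 genes were called in inhibitory neurons in place of 564, and 2044, 1248, 2950, 454, 829 and 78 in excitatory neurons, astrocytes, oligodendrocytes, precursors, microglia and endothelial cells. Endothelial and microglial sums were the shallowest of the 7 classes tested, and changes not called there may have been below what their depth could show.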
